A study of Mus musculus with 20 samples.

Results

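The 10 genes of prostaglandin synthesis, inactivation and reception described here are Ptgs1, Ptgs2, Ptges, Ptges2, Ptges3, Ptgis, Hpgd, Ptger2, Ptger3 and Ptger4. They were chosen by gene symbol, each matched 1 row, and they are 10 of the 14793 genes measured. RNA came from the right knee of 20 male C57BL/6Nci mice of a study begun at 12 weeks of age, in which osteoarthritis had been induced by destabilization of the medial meniscus (DMM), an operation that all 4 groups shared. Of the 10 mice in a group, 5 gave RNA. In the CTRL group a needle was inserted into the joint and no cells were given, and the other 3 groups received adipose-derived mesenchymal stromal cells (MSC) in weeks 3 and 5 after the operation. The MSC group received non-activated cells, the TLR group cells incubated for 2 h with the Toll-like receptor 3 ligand polyinosinic-polycytidylic acid (pIC), and the STING group cells incubated for 2 h with the STING ligand 2′3′-cGAMP. Donor cells came from pooled male mice of the same strain, so transcripts of donor and host could not be told apart. The joint was collected en bloc with cartilage, synovium, capsule and bone, 8 weeks after the operation by the methods and 24 h after injection by the results text of the study.

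Prostaglandins are made from arachidonic acid. The cyclooxygenases encoded by Ptgs1 and Ptgs2 form prostaglandin H2, which terminal synthases turn into prostaglandin E2 (PGE2), prostacyclin and other products, and Hpgd oxidises PGE2 to an inactive form. PGE2 acts through the receptors EP2 and EP4, which raise cyclic AMP, and EP3, which mainly lowers it, and in arthritic joints it is known as a mediator of pain and inflammation and as a target of non-steroidal anti-inflammatory drugs. MSC are also known to release PGE2 themselves. The question put to these genes was whether their RNA in the joint differed between untreated knees and knees given non-activated, TLR3-activated or STING-activated MSC.

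Every member was measured in every joint, from 13 reads for Ptgs2 in its lowest joint to 3608 for Ptges3 in its highest. Library depth was 27955496 to 52529972 reads. Values are counts normalized by a size factor per library, and comparisons between genes are made per kb of exon. On that scale the inducible cyclooxygenase Ptgs2 was the lowest member, at 11.6 ± 12.2 normalized counts per kb (SD, n = 20), and Ptges3, the cytosolic synthase that is also the HSP90 cochaperone p23, was the highest at 1048 ± 89.9. Between them lay Hpgd at 481 ± 63.9, the constitutive cyclooxygenase Ptgs1 at 442 ± 42.9, Ptgis at 353 ± 107, Ptges2 at 139 ± 19.1, Ptger3 at 112 ± 56.9, Ptger4 at 92.7 ± 18.5, Ptges at 48.6 ± 11.8 and Ptger2 at 31.9 ± 7.69. Ptgs1 therefore stood far above Ptgs2 in every joint, whereas the neighbours Hpgd and Ptgs1, Ptgs1 and Ptgis, Ptges2 and Ptger3, and Ptger3 and Ptger4 differed by less than the larger of their SDs. Ptges3 lay at percentile 92.48 and Ptgs2 at percentile 11.29 of the 14770 genes with a length. Exons of Ptgs1, Ptges, Ptges3, Ptgis, Ptger2 and Ptger4 overlap those of a gene on the other strand, and since the sources used here do not state whether counting used strand, some of their reads could belong to the partner.

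Few differences between the groups were larger than the spread between joints. Of 60 tests (10 members in 6 comparisons), 1 had an unadjusted p at or below 0.05 in limma, where 5.96% of all genes and comparisons did. None had a false discovery rate (FDR) at or below 0.05 over all genes (0.00113% of all genes and comparisons did), the lowest being 0.410, and in none did the values of the 2 groups separate fully (1.18% over all genes). The exact two-sided permutation test of 5 joints against 5, which cannot go below p = 0.00794, gave p at or below 0.05 in 3 of the 60. The share of all genes that pass the exact test was not computed, so this count has nothing to be set against. The 1 member past the limma threshold was Ptger3 in STING against TLR, 1 of 10 members where 2.57% of genes passed. No member passed in MSC against CTRL (8.55% of genes), TLR against CTRL (3.58%), STING against CTRL (12.2%), TLR against MSC (3.88%) or STING against MSC (4.94%). Over the 4 groups together the F test was past the threshold for 0 of 10 members against 6.42% of genes, with p from 0.132 for Ptger3 to 0.838 for Ptgs1 (limma).

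**Figure D1:**
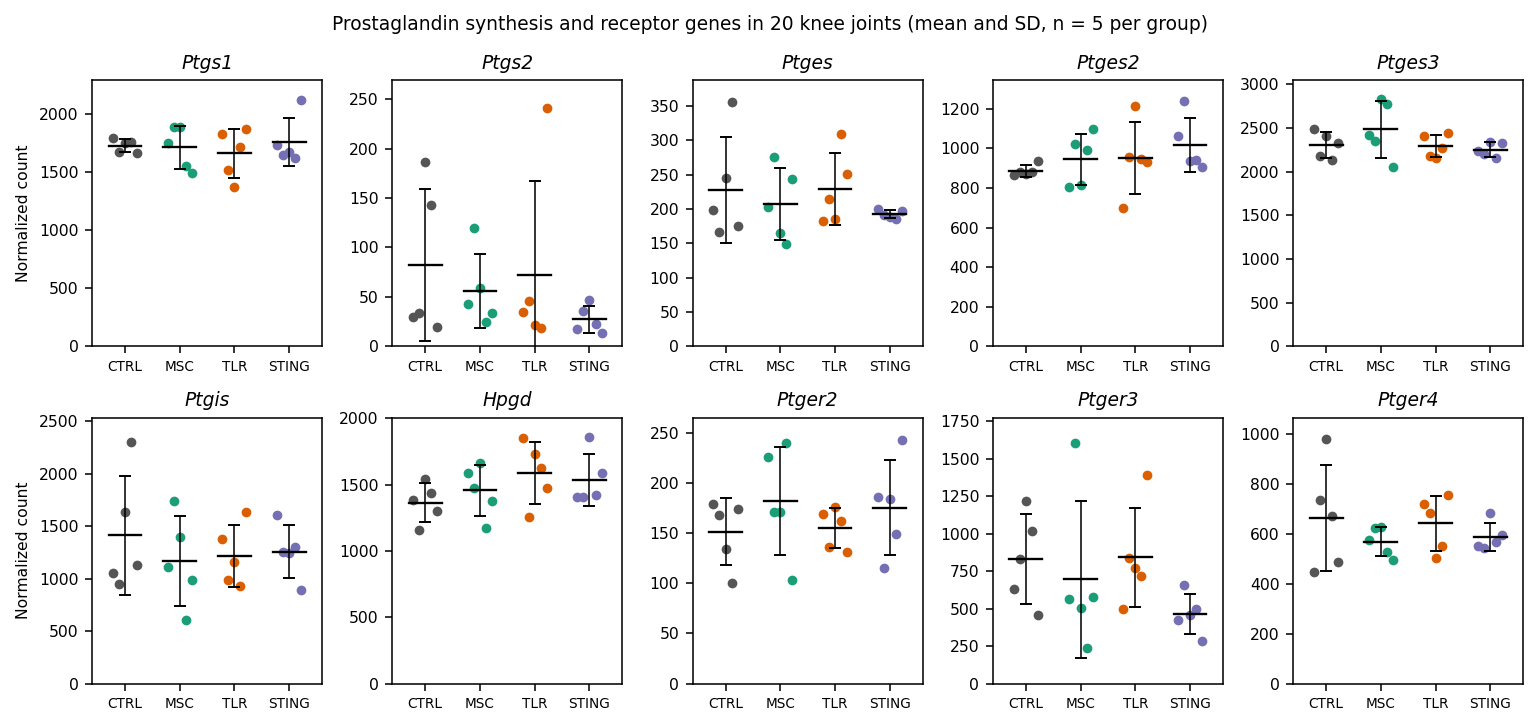
Normalized counts (y axis, from 0) of the 10 members in the 5 joints of each group (points), with the mean and SD (bars; the lower bar of Ptgs2 in TLR runs below 0 and ends at the axis). Ptgs1 and Ptges3 kept within 1.55-fold and 1.38-fold over the 20 joints, while Ptgs2 and Ptger3 ranged over 17.9-fold and 6.84-fold, with groups that overlapped.

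The cyclooxygenases differed in how steady they were. Ptgs1 (ENSMUSG00000047250, chr2:36120438-36142285, + strand, GRCm39) had means of 1732 ± 57.8 normalized counts in CTRL, 1717 ± 185 in MSC, 1665 ± 211 in TLR and 1761 ± 209 in STING (SD, n = 5). Its log2 fold changes over the 6 comparisons lay between −0.07 and 0.08, and their 95% intervals between −0.27 and 0.28. A change in Ptgs1 of more than 1.22-fold upwards or below 0.832-fold thus lay outside every interval.

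Ptgs2 (ENSMUSG00000032487, chr1:149975782-149983979, + strand) is induced by cytokines and mechanical load in many joint cells. It had values of 29.6, 33.8, 186, 142 and 19.1 normalized counts in the 5 CTRL joints and 42.2, 119.5, 58.7, 24.7 and 33.6 in MSC. The TLR joints had 34.6, 45.3, 21.4, 18.6 and 241, and the STING joints 17.0, 35.5, 46.9, 22.5 and 13.4. CTRL replicates 3 and 4, MSC replicate 2 and TLR replicate 5 stood above 100 normalized counts and all other joints below 60 (58.7 at most), so each group but STING held a joint or a pair of joints far above the rest. STING was lower than CTRL by the largest fold change among the members, −1.15 on the log2 scale (SE 0.69, 95% interval −2.59 to 0.29), with 2 of 5 STING joints below all CTRL joints, and limma gave p = 0.112 and FDR = 0.510 (exact permutation p = 0.183). In the count models DESeq2 and edgeR on recovered reads, Ptgs2 in STING vs CTRL had a log2 fold change of −1.60 in both, with unadjusted p of 0.0245 and 0.0468. The differences of MSC and TLR from CTRL were −0.21 (interval −1.65 to 1.23) and −0.34 (−1.79 to 1.10), so changes of 2-fold in either direction lay inside them.

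The terminal synthases showed no difference past the limma threshold. Ptges, the microsomal PGE2 synthase that is coupled to Ptgs2 in inflamed tissue, had means of 228 ± 77.3 in CTRL, 207 ± 52.9 in MSC, 229 ± 52.6 in TLR and 193 ± 6.46 in STING (normalized counts, SD, n = 5). The 5 STING joints lay within 185 to 200.6, while CTRL ran from 167 to 355. Ptges2, a membrane-associated synthase, had values of 864, 881, 871, 879 and 935 in CTRL and of 1062, 1242, 939, 941 and 906 in STING. 4 of the 5 STING joints were above all CTRL joints, with a log2 fold change of 0.19 (SE 0.12, limma p = 0.140, FDR = 0.543, exact permutation p = 0.0159). Ptges3 varied least of all members, with intervals over the 6 comparisons between −0.30 and 0.26. Ptgis, the prostacyclin synthase, had means of 1414 ± 565 in CTRL, 1168 ± 432 in MSC, 1218 ± 294 in TLR and 1258 ± 256 in STING, and its smallest p in limma was 0.310 (MSC against CTRL, log2 fold change −0.28).

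Hpgd, which inactivates PGE2, had a higher mean in each treated group than in CTRL, with no difference past the threshold. Its means were 1363 ± 146 in CTRL, 1456 ± 191 in MSC, 1586 ± 232 in TLR and 1536 ± 195 in STING (normalized counts, SD, n = 5). The log2 fold change of TLR against CTRL was 0.21 (95% interval −0.03 to 0.46, limma p = 0.0861, FDR = 1.00, exact permutation p = 0.119), and 3 of 5 TLR joints were above all CTRL joints. Among the receptors Ptger2 (EP2) and Ptger4 (EP4), no limma p was below 0.309 and 0.333, and the widest intervals reached from −0.66 to 0.72 for Ptger2 and from −0.53 to 0.52 for Ptger4.

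Ptger3 (ENSMUSG00000040016, chr3:157272529-157351526, + strand), which encodes EP3, was lower in STING than in TLR. Its values were 629.9, 829, 1219, 1018 and 461 normalized counts in CTRL and 566, 1601, 504, 234 and 574 in MSC. The TLR joints had 501, 835, 768, 719.8 and 1388 and the STING joints 425, 656, 455, 496 and 281. 4 of the 5 STING joints were below every TLR joint and 3 of 5 were below every CTRL joint, and the remaining STING joint, at 656, lay inside the range of both. The log2 fold change of STING against TLR was −0.84 (SE 0.39, 95% interval −1.65 to −0.02), with limma p = 0.0452 and FDR = 0.890, and exact permutation p = 0.0159. STING against CTRL gave −0.81 (interval −1.63 to 0.00, limma p = 0.0503, FDR = 0.410, exact permutation p = 0.0476), in a comparison that used the same STING joints. TLR against CTRL gave 0.02 (−0.79 to 0.84). The limma call in STING against TLR was lost when 8 of the 10 joints compared were left out in turn, with limma p from 0.0544 to 0.130 and exact permutation p from 0.0397 to 0.0476. Without TLR replicate 5, the highest, the log2 fold change was −0.64 (limma p = 0.130, exact permutation p = 0.0476), and without STING replicate 5, the lowest, it was −0.67 (limma p = 0.118, exact permutation p = 0.0476). Leaving out TLR replicate 2, 3 or 4 or STING replicate 1, 3 or 4 took the limma p to between 0.0544 and 0.0703 with log2 fold changes of −0.82 to −0.87. Of the joints of the other groups, which enter limma through the shared spread, CTRL replicate 2 and MSC replicates 1, 3 and 5 each took p to between 0.0509 and 0.0517.

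**Figure D2:**
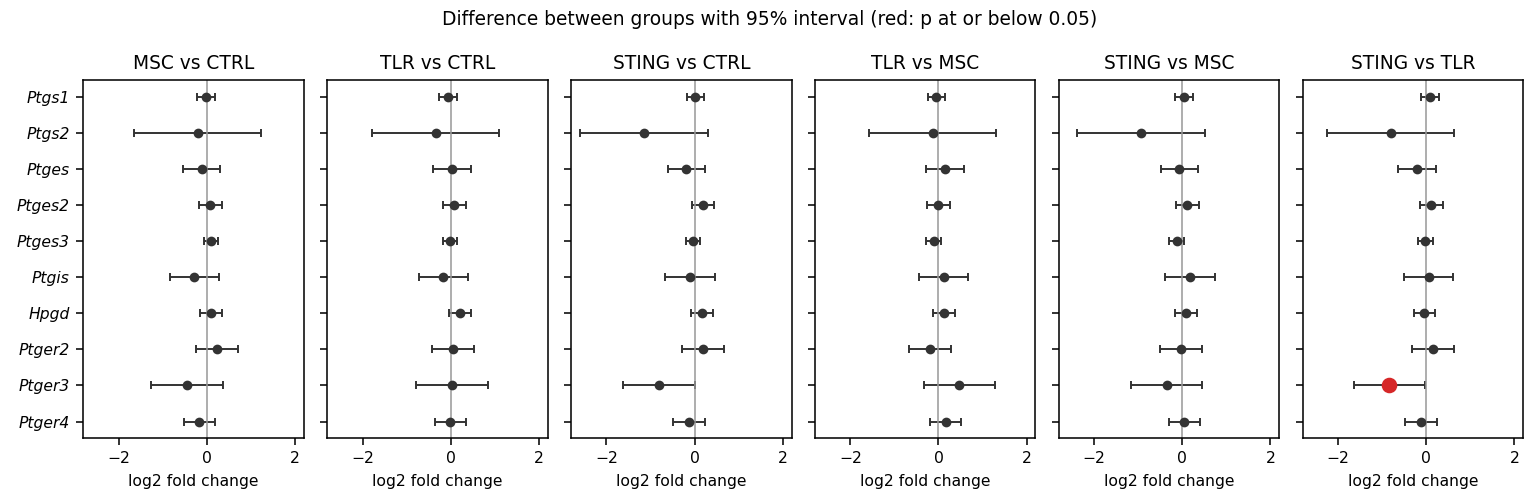
Log2 fold change (x axis) of the 10 members in the 6 comparisons, with 95% intervals from limma (bars). The 1 red point is Ptger3 in STING against TLR at −0.84, and the intervals are narrowest for Ptges3 and Ptgs1 and widest for Ptgs2.

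In the non-activated MSC group the Ptger3 value depended on the highest and the lowest joint. MSC replicate 2, at 1601 normalized counts, lay far above the other 4 MSC joints at 234 to 574, and without it MSC against CTRL became −0.83 on the log2 scale (limma p = 0.0229, exact permutation p = 0.0714) from −0.46 (limma p = 0.257). Without MSC replicate 4, the lowest at 234, it moved the other way, to −0.13. MSC replicates 2 and 5 also stood apart in the series as a whole: the number of genes with p at or below 0.05 in MSC against CTRL rose from 1265 to 2468 without replicate 2 and to 1926 without replicate 5, and replicate 5 had 296 genes at 0.

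Levels of Ptger3 followed a sum of synovial fibroblast markers from joint to joint. The summed level of 6 such markers (Prg4, Pdgfra, Col1a1, Dcn, Thy1 and Clic5), of which none was at 0 in any joint, was 342121 to 1118100.3 normalized counts in CTRL, 157503 to 904597 in MSC, 380243 to 789772 in TLR and 159086 to 369055 in STING. Prg4 and Col1a1 made up most of the sum (225611 and 134243 of 403557 in CTRL replicate 1), so it mainly reflects these genes. All 5 STING joints were below all 5 TLR joints in this sum. None of the 6 markers alone passed the limma threshold as lower in STING than in TLR. Prg4 alone did separate fully, at 40339 to 196213 normalized counts in STING and 200432 to 397958 in TLR. The groups overlapped in each of the other markers. Of all genes, 1.35% had STING and TLR joints that did not overlap, in either direction. After subtracting group means, the correlation of Ptger3 with the sum over the 20 joints was r = 0.897 (permutation p = 2e-05, adjusted p = 0.00128) and rho = 0.865 (permutation p = 3e-05, adjusted p = 0.0016), and r was 0.837 without the 2 joints farthest from the median. It was 1 of 160 relations computed between 10 members and 16 marker lists, of which 18 had an adjusted p at or below 0.05 for both coefficients. The same share over all genes was not computed, so these relations are not shown to be particular to the members. Ptger3 also ran against the erythroid markers (r = −0.722, permutation p = 0.00062, adjusted p = 0.0096, rho = −0.768, adjusted p = 0.00617, and r = −0.684 without the 2 farthest joints). It followed the osteoblast markers too (r = 0.657, permutation p = 0.00397, adjusted p = 0.0334, rho = 0.707, adjusted p = 0.0332, and r = 0.485 without the 2 farthest). The relations were computed after the group results were seen. In whole-joint RNA, fewer cells of a type and less RNA per cell cannot be told apart, and the part of synovial tissue content in the Ptger3 difference was not tested.

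**Figure D3:**
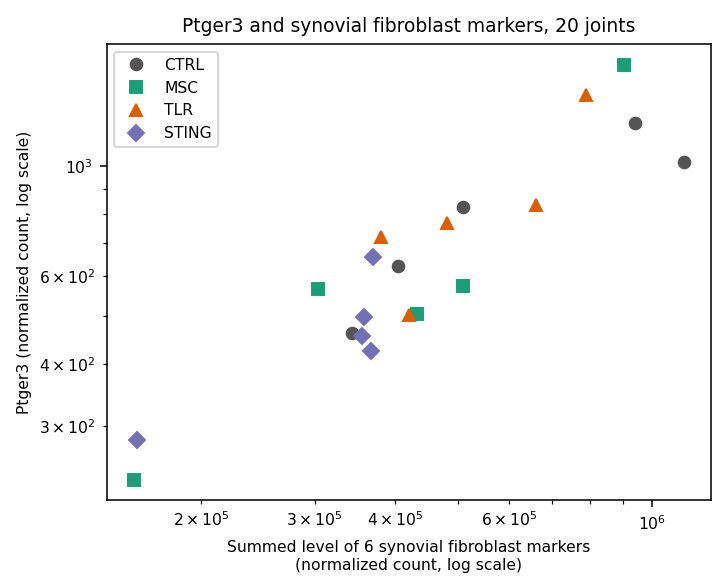
Ptger3 (y axis, normalized count, log scale) against the summed level of 6 synovial fibroblast markers (x axis, normalized count, log scale) in 20 joints, 1 point each with the group as its symbol. The points follow a rising band (r = 0.897 within groups), and the 5 STING joints sit at or below 369055 on the x axis.

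Several other members varied with markers of a tissue of the joint. Ptgis followed the synovial fibroblast markers (r = 0.832, permutation p = 0.00026, adjusted p = 0.00594, rho = 0.741, adjusted p = 0.0218, and r = 0.727 without the 2 farthest joints). It also followed the osteoblast markers (r = 0.782, permutation p = 0.00034, adjusted p = 0.00604, rho = 0.777, adjusted p = 0.0117, and r = 0.737 without the 2 farthest). Ptger4 followed the osteoblast markers (r = 0.762, permutation p = 0.00134, adjusted p = 0.0163, rho = 0.792, adjusted p = 0.0123, and r = 0.727 without the 2 farthest). It also followed the chondrocyte markers (r = 0.708, permutation p = 0.00087, adjusted p = 0.0116, rho = 0.756, adjusted p = 0.0151, and r = 0.776 without the 2 farthest). Ptges2 followed the 5 measured smooth muscle markers (r = 0.924, permutation p = 4e-05, adjusted p = 0.00128, rho = 0.913, adjusted p = 0.002, and 0.887 without the 2 farthest), and the STING joint highest in Ptges2, replicate 2, was also the STING joint farthest above its group in that sum. It followed the skeletal muscle markers nearly as closely (r = 0.864, permutation p = 3e-05, adjusted p = 0.00128, rho = 0.865, adjusted p = 0.0016, and 0.820 without the 2 farthest) and ran against the B cell markers (r = −0.607, permutation p = 0.00436, adjusted p = 0.0349, rho = −0.704, adjusted p = 0.0261, and −0.665 without the 2 farthest). Hpgd followed the macrophage markers (r = 0.777, permutation p = 0.00025, adjusted p = 0.00594, rho = 0.771, adjusted p = 0.007, and 0.722 without the 2 farthest). Ptger2 followed the neutrophil markers (r = 0.740, permutation p = 0.00066, adjusted p = 0.0096, rho = 0.698, adjusted p = 0.0329, and 0.666 without the 2 farthest) and ran against the synovial fibroblast markers (r = −0.720, permutation p = 0.00328, adjusted p = 0.0328, rho = −0.845, adjusted p = 0.00416, and −0.602 without the 2 farthest). It also followed the erythroid markers (r = 0.708, permutation p = 0.00143, adjusted p = 0.0163, rho = 0.686, adjusted p = 0.0342, and 0.627 without the 2 farthest). Ptgs1 ran against the skeletal muscle markers (r = −0.768, permutation p = 0.00212, adjusted p = 0.0226, rho = −0.747, adjusted p = 0.0342, and −0.737 without the 2 farthest). Sums of macrophage markers ranged over 22291 to 35503 normalized counts in the 20 joints and sums of smooth muscle markers over 29578 to 99022. No marker of synovial fibroblasts, chondrocytes, osteoblasts, skeletal muscle, neutrophils or erythroid cells was at 0 in any of the 20 joints, so each joint held RNA of muscle and marrow besides synovium, cartilage and bone, and their part in the member levels was not tested.

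The 4 joints high in Ptgs2 were also the 4 highest of the 20 in Ptger3, at 1018 to 1601 normalized counts. Over all 20 joints Ptgs2 followed Ptger3 (r = 0.755, permutation p = 0.0001, adjusted p = 0.0045 over 45 pairs of members, rho = 0.780, adjusted p = 0.0121, and r = 0.711 without the 2 farthest joints) and Ptgis (r = 0.726, permutation p = 0.00062, adjusted p = 0.014, rho = 0.755, adjusted p = 0.0175, and 0.739 without the 2 farthest). Among the marker lists it followed those of osteoblasts (r = 0.878, permutation p = 2e-05, adjusted p = 0.00128, rho = 0.913, adjusted p = 0.0016, and 0.834 without the 2 farthest), synovial fibroblasts (r = 0.784, permutation p = 4e-05, adjusted p = 0.00128, rho = 0.808, adjusted p = 0.00617, and 0.819 without the 2 farthest) and chondrocytes (r = 0.767, permutation p = 0.00031, adjusted p = 0.00604, rho = 0.755, adjusted p = 0.0151, and 0.747 without the 2 farthest). Because the 4 joints stood apart, relations of Ptgs2 were computed over the other 16 joints, 25 in all with the other 9 members and the 16 marker lists, and none had an adjusted p at or below 0.05. These 16 joints were picked by their level of Ptgs2 itself, which narrows its range and lowers the number of joints. There Ptgs2 and Ptger3 had r = 0.556 (permutation p = 0.0426, adjusted p = 0.266) and rho = 0.574 (permutation p = 0.0353, adjusted p = 0.234), with r = 0.552 without the 2 farthest joints. The closest list was that of osteoblast markers, with r = 0.767 (permutation p = 0.00244, adjusted p = 0.061), rho = 0.812 (permutation p = 0.00213, adjusted p = 0.0532) and r = 0.758 without the 2 farthest joints. Ptger2 and Ptger3, receptors with opposite action on cyclic AMP, ran against each other over the 20 joints, with rho = −0.720 (permutation p = 0.00139, adjusted p = 0.0208 over 45 pairs of members), but r = −0.554 (permutation p = 0.0394, adjusted p = 0.161). Without the 2 farthest joints r was −0.666, and it was negative within each group, from −0.337 in MSC to −0.971 in STING.

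**Figure D4:**
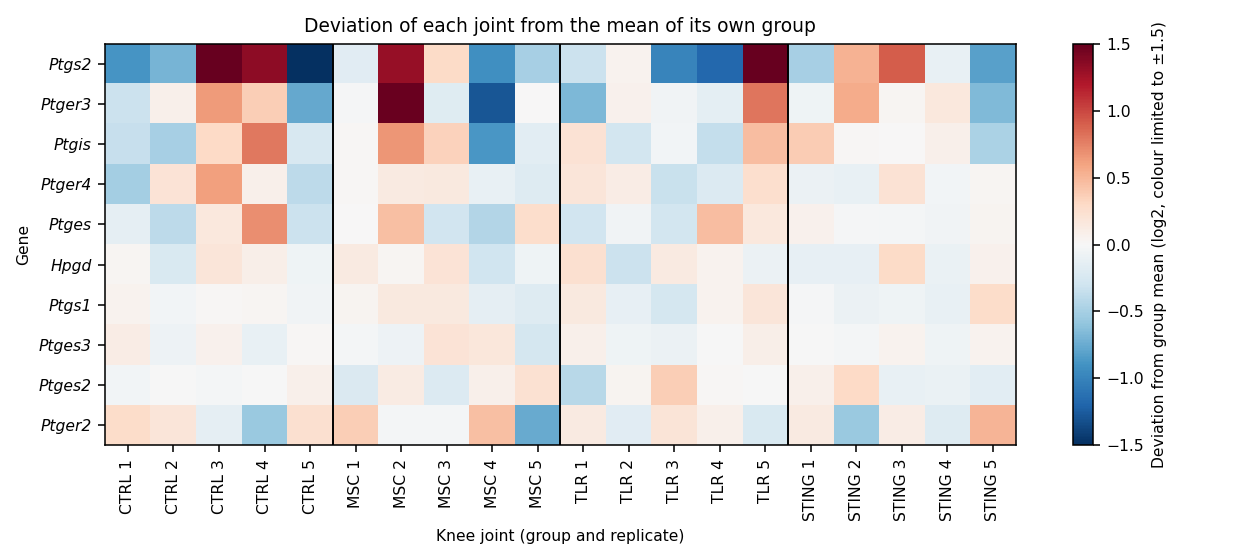
Deviation of each joint (columns, 5 per group) from the mean of its own group for the 10 members (rows), in log2 units by colour, limited to ±1.5. Ptgs2 and Ptger3 are red together in CTRL replicates 3 and 4, MSC replicate 2 and TLR replicate 5, and Ptger2 (bottom row) is blue in CTRL replicates 3 and 4 and TLR replicate 5.

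The promoters of Ptgs2 and of the PGE2 receptors among the members are shown, to set the receptor genes beside the inducible cyclooxygenase. Windows of 300 bases (250 before and 50 after the start) were taken from RefSeq on GRCm38.p6, the build of that table only, and matched 9 of the 10 members, Ptgis being the other. They lie at chr1:150099781-150100080 (+) for Ptgs2, chr3:157566626-157566925 (+) for Ptger3, chr15:5244138-5244437 (−) for Ptger4 and chr14:44987861-44988160 (+) for Ptger2. Capitals mark matches, on either strand, to the 6 motifs searched.
Ptgs2: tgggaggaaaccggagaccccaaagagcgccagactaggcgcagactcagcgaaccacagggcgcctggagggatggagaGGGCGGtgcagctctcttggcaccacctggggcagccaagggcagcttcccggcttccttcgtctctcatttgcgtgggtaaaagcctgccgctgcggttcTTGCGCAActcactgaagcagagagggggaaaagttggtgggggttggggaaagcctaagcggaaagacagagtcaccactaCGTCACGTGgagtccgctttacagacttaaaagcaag
Ptger3: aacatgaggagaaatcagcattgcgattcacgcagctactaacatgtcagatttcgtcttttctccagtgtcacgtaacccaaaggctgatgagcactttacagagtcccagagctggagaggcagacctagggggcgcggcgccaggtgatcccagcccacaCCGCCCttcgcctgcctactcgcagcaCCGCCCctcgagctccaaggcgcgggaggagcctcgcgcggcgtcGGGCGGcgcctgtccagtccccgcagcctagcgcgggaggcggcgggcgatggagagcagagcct
Ptger4: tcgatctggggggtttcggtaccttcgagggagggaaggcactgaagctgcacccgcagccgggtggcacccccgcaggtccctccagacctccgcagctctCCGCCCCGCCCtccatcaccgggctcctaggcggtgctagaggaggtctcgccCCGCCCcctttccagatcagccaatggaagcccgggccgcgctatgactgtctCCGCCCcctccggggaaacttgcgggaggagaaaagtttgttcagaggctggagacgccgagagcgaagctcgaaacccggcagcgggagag
Ptger2: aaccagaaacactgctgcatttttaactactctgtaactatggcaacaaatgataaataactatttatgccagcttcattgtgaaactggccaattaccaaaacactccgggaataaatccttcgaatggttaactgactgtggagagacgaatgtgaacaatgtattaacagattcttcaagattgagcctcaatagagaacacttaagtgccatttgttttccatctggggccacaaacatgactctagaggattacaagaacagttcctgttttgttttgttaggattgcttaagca

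The core of the cyclic AMP response element was searched as TGACG, which 20.8% of 32851 windows of this length held. A palindrome bound by C/EBP factors was searched as TTGCGCAA and stood in 0.183% of the windows. The AP-1 site, searched as TGACTCA, stood in 5.2% of all windows. For the E-box the letters searched were CACGTG, found in 7.15% of all windows. The GC box bound by Sp1 was searched as GGGCGG and was the most common, in 35.7% of all windows. A TATA box was counted where the window held TATAAA, as 13.6% of all windows did. The Ptgs2 window held a GC box and the C/EBP palindrome at −69 to −62. It also held a response element core that overlaps an E-box, at 14 to 22 bases past the annotated start. Annotations differ in the start of Ptgs2 (149975782 as deposited and 149975194 in GENCODE). Where transcription began in these joints was not measured, so the positions do not place a match inside the transcript. The windows of Ptger3 and Ptger4 held GC boxes only, 3 and 4 of them, with 1 base shared by neighbouring boxes in Ptger4, and that of Ptger2 held no match and had 37.7% G and C, against 64.0% in Ptger3 and 67.0% in Ptger4. These matches describe letters and not binding, and no data on binding were used.

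For each member the 2 genes most like it over the 20 joints were found by Spearman's rho of the deviations from group means, as a description. Myl6 (rho = 0.958) and Stk38l (0.947) were closest to Ptger3, Pdia4 (0.940) and Cacnb3 (0.928) to Ptgs2, Tmem126a (0.974) and Pex19 (0.967) to Ptges2, and Cnksr3 (0.925) and Spryd3 (0.911) to Ptgis. For the other members they were Dalrd3 (0.920) and Vps51 (0.866) for Ptgs1, Bpifc (0.910) and Ro60 (0.875) for Ptges, and Csnk2a2 (0.875) and Amz1 (0.872) for Ptges3. Ydjc (0.860) and Gna13 (0.785) were closest to Hpgd, Amer2 (0.854) and Slfn1 (0.853) to Ptger2, and Mdfi (0.868) and Mex3a (0.862) to Ptger4. Without MSC replicate 2 Stk38l fell to place 230 for Ptger3 with rho still at 0.865, so many genes followed Ptger3 about as closely.

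Among other genes of eicosanoid metabolism, several of the leukotriene branch were higher in the treated groups, while those feeding and surrounding the cyclooxygenases mostly did not pass the test. Leukotrienes are made from the same arachidonic acid by 5-lipoxygenase (Alox5) and its activating protein (Alox5ap), and leukotriene A4 hydrolase (Lta4h) forms leukotriene B4, which attracts neutrophils through the receptor Ltb4r1. Of 17 genes on this list, all measured, 4 were higher and 0 lower in MSC than in CTRL, where 5.64% of all genes were higher, and 6 were higher and 0 lower in STING than in CTRL, where 6.54% were. In TLR against CTRL 2 were higher and 0 lower (2.68% of genes higher). The 6 in STING included Lta4h (exact permutation p = 0.0714) and Alox12b (exact permutation p = 0.103). Alox12b was low, at 0.0 to 15.9 normalized counts in CTRL and 8.3 to 21.0 in STING. Cysltr1 was higher in MSC and TLR than in CTRL (log2 fold changes 0.38 and 0.40, exact permutation p = 0.0635 and 0.00794). It was lower in STING than in MSC (−0.40, exact permutation p = 0.0794) and in TLR (−0.41, exact permutation p = 0.0159). The list's median log2 fold change was 0.27, 0.26 and 0.32 in MSC, TLR and STING against CTRL, where the medians of all genes were −0.04, −0.01 and 0.01. These comparisons share the CTRL joints, and none of the genes had an FDR at or below 0.05. The list was chosen with earlier results of these data known, so its counts beside all genes are a description and no test.

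Alox5ap had values of 809.8, 704, 633, 535 and 501 normalized counts in CTRL, 1015, 740.0, 915, 1074 and 856 in MSC, 820.1, 636, 747, 882 and 767 in TLR and 868, 707, 959, 978 and 730.1 in STING. 4 of the 5 MSC joints were above all CTRL joints. Its log2 fold change was 0.54 in MSC (SE 0.14, limma FDR = 0.201, exact permutation p = 0.0159) and 0.42 in STING (SE 0.14, limma FDR = 0.310, exact permutation p = 0.0317) against CTRL. Alox5 rose by 0.40 in MSC (SE 0.14) and 0.45 in STING (SE 0.14), each with exact permutation p = 0.0317, and Ltb4r1 by 0.57 in STING (SE 0.20, exact permutation p = 0.0238). Of 6 neutrophil markers, 4 were higher in MSC and 5 in STING than in CTRL (0 in TLR). Of all genes, 5.64%, 6.54% and 2.68% were higher in MSC, STING and TLR. The summed level of the markers was 367950.1 to 651607 normalized counts in CTRL, 523888 to 891222 in MSC, 488688 to 760324 in TLR and 523653 to 812766 in STING, with no marker at 0. Their relation to the leukotriene genes from joint to joint was not computed. Mast cells also carry 5-lipoxygenase, and the summed level of 6 mast cell markers, none at 0, was 2974 to 5569 normalized counts in CTRL, 4145 to 8094 in MSC, 4278 to 5630 in TLR and 4392 to 6466 in STING. The median log2 fold change of the mast cell list against CTRL was 0.39 in MSC, 0.80 in TLR and 0.84 in STING. Markers higher were 1 of 6 in MSC (Hdc), 2 in TLR (Cma1 and Mcpt4) and 1 in STING (Hdc), where 5.64%, 2.68% and 6.54% of all genes were. The sum rests mainly on Hdc and Kit, which had the highest values of the 6. Mcpt4, Tpsb2 and Cma1 differed most from CTRL in TLR (log2 fold changes 1.12, 1.15 and 1.14), where the sum reached 5630 at most. The part of either cell type in the leukotriene genes was not tested. Without CTRL replicate 3, 3 of the 17 genes remained higher in STING, Alox5, Alox5ap and Ltb4r1.

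**Figure D5:**
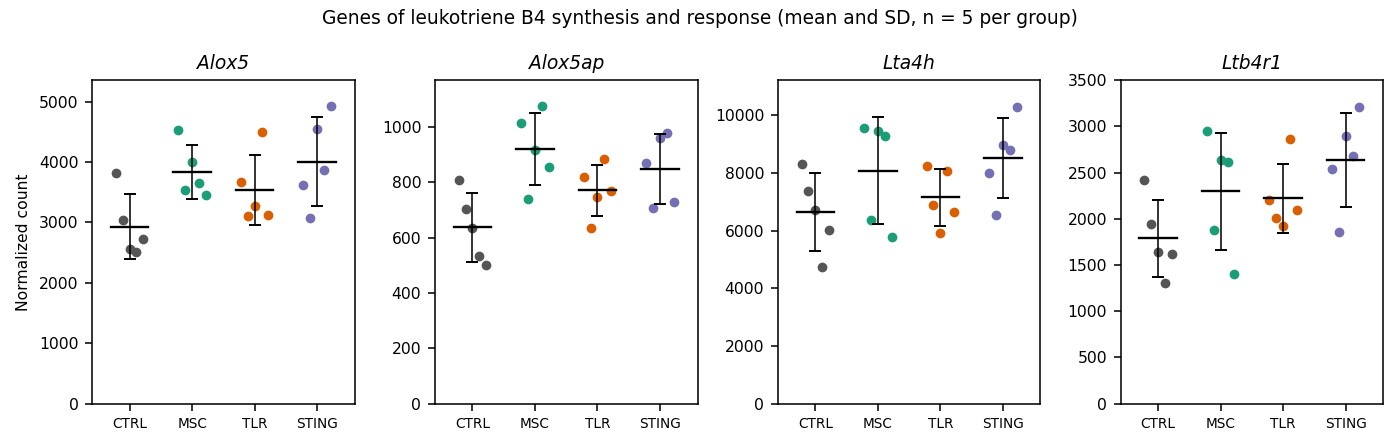
Normalized counts (y axis, from 0) of 4 genes of leukotriene B4 synthesis and reception in the 5 joints of each group (points), with the mean and SD (bars). For Alox5ap, 4 of the 5 MSC joints lie above the highest CTRL joint at 809.8, and TLR and STING joints overlap CTRL.

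Of 13 measured phospholipases and genes of arachidonate release and of 5 other prostanoid synthases, 0 passed in any comparison. Of 6 other prostanoid receptors, Ptgfr, the receptor of prostaglandin F2α, was lower in STING than in TLR (log2 fold change −0.67, SE 0.29, limma FDR = 0.890, exact permutation p = 0.00794, the smallest possible), a difference of the same direction as that of Ptger3. Its values were 198, 208, 199, 181 and 173 in STING and 311, 285, 260.1, 273 and 414 in TLR, which did not overlap, as for 1.35% of all genes. Ptgfr was 1 of 6 receptors past the limma threshold, where 2.57% of all genes passed in either direction. The limma call of Ptgfr was lost without STING replicate 4 or 5 or TLR replicate 1 or 5, at log2 fold changes of −0.56 to −0.66, while the exact permutation p stayed at 0.00794. Of 8 genes of prostaglandin transport and inactivation, Abcc4, which exports PGE2, was higher in STING than in CTRL (0.28, SE 0.10, limma FDR = 0.353, exact permutation p = 0.0397), in 4 of 5 STING joints above all CTRL joints. This was 1 of 8 genes where 6.54% of all genes were higher, and without CTRL replicate 4 the log2 fold change was 0.19 (limma p = 0.0612, exact permutation p = 0.0714). Abcc4 was also higher in STING than in MSC (0.26, exact permutation p = 0.0238), a call lost without STING replicate 5 or MSC replicate 2, at 0.21 each. This was again 1 of 8 genes, where 4.94% of all genes passed in either direction. Cbr3 passed the limma threshold as higher in TLR than in MSC (0.68), but not the exact test (exact permutation p = 0.0952). It was 1 of 8 genes, where 3.88% of all genes passed limma in either direction. The limma call was lost without any 1 of 6 joints (TLR replicates 2 to 5 and MSC replicates 3 and 4), with 0.36 without MSC replicate 4.

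Some genes that respond to cyclic AMP, the messenger of EP2 and EP4, were lower with activated than with non-activated MSC. Of 13 measured, 6 were lower and 0 higher in STING than in MSC, where 2.17% of all genes were lower, and 4 were lower and 0 higher in TLR than in MSC (1.99% of genes lower), with the MSC joints shared by both comparisons. Against CTRL, 3 were higher and 0 lower in MSC (Per1, Nr4a3 and Crtc2), 1 higher and 2 lower in TLR, and 1 higher and 2 lower in STING. Of all genes, 8.55%, 3.58% and 12.2% passed in either direction in these 3 comparisons. Per1, 1 of the 6 lower in STING than in MSC (−0.50, exact permutation p = 0.0397), was higher than in CTRL in MSC (0.96, exact permutation p = 0.0159) and in STING (0.46, exact permutation p = 0.0476). The Per1 call in STING against MSC was lost without MSC replicate 3 (−0.33), and that against CTRL without STING replicate 1 or 4 or CTRL replicate 2 or 3 (0.33 to 0.44). In STING against MSC the log2 fold change was −1.53 for Fos (SE 0.38, limma FDR = 0.568, exact permutation p = 0.00794), −2.20 for Fosb (SE 0.59, exact permutation p = 0.00794), −0.57 for Dusp1 (SE 0.18, exact permutation p = 0.0159) and −0.56 for Sik1 (SE 0.18, exact permutation p = 0.0556). Fosb was 2531 normalized counts in MSC replicate 2 and 182 to 795 in the other MSC joints, and without that joint its log2 fold change was −1.59 (exact permutation p = 0.00794). These are immediate early genes that stress, handling and many other signals also induce. Fos ranged over 237 to 539 normalized counts in STING, 254 to 969 in TLR, 665 to 1704 in MSC and 665 to 1512 in CTRL, so STING lay below MSC and CTRL without overlap (1.05% and 2.17% of all genes). In TLR against MSC, 2 genes (Per1 and Sik1) passed without MSC replicate 2, and likewise without MSC replicate 3 or TLR replicate 1. Of 15 inducible inflammatory genes, 6 were higher in MSC than in CTRL (0 lower, 5.64% of all genes higher), 5 lower in STING than in MSC (0 higher, 2.17% of all genes lower) and 4 lower in TLR than in MSC (0 higher, 1.99% of all genes lower). This list and that of cyclic AMP genes were chosen with earlier results of these data known. Their counts beside all genes are therefore a description and no test. Il1b, named here after its values were seen, ranged over 726 to 1639 normalized counts in MSC and 456 to 693 in CTRL, while Ptgs2 itself, a gene induced by the same signals, did not pass in any of these comparisons.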

How the data were processed

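Poly(A) RNA of 20 knee joints was sequenced. The authors aligned reads to GRCm39 with STAR 2.7.3a, counted them per gene with HTSeq on Ensembl and named DESeq2, and they deposited counts divided by a median-ratio size factor, a normalized signal for 14793 genes. From 99.84% to 99.92% of values were whole reads (tolerance 0.1), which gave the depth of each library. Groups and replicate numbers came from the labels. The members and lists were chosen with earlier results of these data known.

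limma 3.58.1 (R 4.3.3, trend) was fitted to log2(normalized count + 1) over all 20 joints and 4 groups. The threshold was an unadjusted p of 0.05, and FDR is Benjamini-Hochberg over all genes. A minimum mean of 5 removed 0 genes. Fold changes are on the log2(value + 1) scale, which understates changes of low genes. On simulated data 93.5% of 200 genes changed 4-fold in MSC against CTRL were recovered among 14793 at FDR 0.05, with 8 false calls. The largest member difference, −1.15 on the log2 scale, was below 4-fold, so recovery of changes of the size seen in the members was not measured. Exact permutation tests used all 252 splits of log2 values, and correlations used deviations from group means with 100000 permutations within groups, two-sided. Alternatives included edgeR 4.0.16 and DESeq2 1.42.0 on recovered reads. All members were named, of the lists of eicosanoid and cyclic AMP genes at most 6 per comparison by smallest p, and 2 genes per member for likeness. Exon length per gene was the union of GENCODE exons. Positions are as deposited. Replicates are joints of separate mice.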

Additional observations from a re-analysis of the deposited data

Results flagged for a closer look

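Among 40 sets of 5 joints (10 members in 4 groups), 4 held a joint whose gap to its nearest neighbour exceeded Dixon's 95% limit, and about 1 in 20 is expected by chance. Ptgs1 was 2128 normalized counts in STING replicate 5, with the next joint at 1737. Ptgs2 was 241 in TLR replicate 5, with the next at 45.3. Ptges2 was 934.9 in CTRL replicate 5, with the next at 881. Ptger3 was 1601 in MSC replicate 2, with the next at 574.

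For the difference of Ptger3 from CTRL in STING and in TLR, the test of the difference itself, STING against TLR, gave −0.84 on the log2 scale (limma p = 0.0452, FDR = 0.890, exact permutation p = 0.0159). The limma p was above 0.05, up to 0.130, for 12 of the 20 joints left out in turn.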

How the results depend on the processing

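Alternatives were another pseudocount (0.5 or 5), a minimum mean of 20, no filter, only the 2 groups compared, quantile normalization, a replicate block, edgeR, DESeq2 and leaving out each joint. Chosen after seeing the data were leaving out MSC replicates 2 and 5 together, DESeq2 without its cutoff and filtering, and the correlations without 4 joints or with marker lists. The number of members at p of at most 0.05 in STING against CTRL, 0 as reported, was 1 (Ptger3) with only the 2 groups, quantile normalization or without MSC replicates 2 and 5 (15.5%, 12.0% and 16.8% of all genes), and 2 (Ptger3 and Ptgs2) in edgeR and in both DESeq2 fits, where 13.3% and 15.2% to 15.3% of all genes passed. In STING against TLR it was 1 as reported and 2 in both DESeq2 fits, where 4.57% and 4.81% of all genes passed. In STING against MSC it was 1 (Ptges3) in edgeR, where 4.85% did. Without MSC replicates 2 and 5 it was 3 of 10 in MSC against CTRL (Ptger2, Ptger3 and Ptges3), where 28.8% of all genes passed, 2 in TLR against MSC (Ptger3 and Ptges3), where 22.3% did, and 1 in STING against MSC (Ptges3), where 8.9% did. Leaving out 1 joint gave 0 to 2 in STING against CTRL and 0 to 1 in each of the other 5 comparisons. The causes were not tested.

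With the replicate block, Hpgd passed in TLR against CTRL and Ptger3 in STING against CTRL (1 member each, 0 without the block), and no other count changed. The numbers mark different mice and did not pair them: same-numbered joints correlated from −0.658 to 0.464 over 30 pairs (mean −0.0331).

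Of 20 member differences followed through all alternatives, 5 changed sign in some, all within their intervals. Leaving out 1 joint, Ptgs1 ran from −0.053 to 0.045 in STING against CTRL, Ptgs2 from −0.58 to 0.22 in MSC against CTRL and −0.95 to 0.090 in TLR against CTRL, and Ptger3 from −0.18 to 0.19 in TLR against CTRL and −0.68 to 0.011 in STING against MSC. The last was 0.14 without MSC replicates 2 and 5. Single joints left out brought limma calls, with log2 fold changes of −1.52 for Ptgs2 in STING against CTRL (without CTRL replicate 5), 0.17 and −0.20 for Ptges3 in MSC against CTRL and STING against MSC (without MSC replicate 5), and 0.29 for Hpgd in TLR against CTRL (without TLR replicate 2). Ptger3 in STING against CTRL passed, at −0.81 to −1.01, without CTRL replicate 1 or 5, MSC replicate 2 or 4, TLR replicate 1 or 5, or STING replicate 2. The leukotriene genes higher numbered 3 to 6 in MSC and 3 to 7 in STING against CTRL.

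Low depth limits Ptgs2, with 13 to 213 reads per joint. The spread between joints limits Ptgs2, Ptger3 and Ptgis.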
